A study of Mus musculus with 24 samples.

Results

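Laminins are large secreted proteins of basement membranes, each assembled from 1 alpha, 1 beta and 1 gamma chain. The 9 genes described here, Lama2, Lama3, Lama4, Lama5, Lamb1, Lamb2, Lamb3, Lamc1 and Lamc3, each encode 1 such chain, and they were picked by gene symbol from a table of 56205 Ensembl genes. All 9 passed the filter on low counts (at least 1 count in at least 12 libraries), which 17913 genes of the table passed. Whole-liver RNA of C57BL/6J mice had been sequenced in 24 libraries after 20 weeks on a diet. Of these, 12 were from mice on a high-fat diet rich in palm oil, fructose and cholesterol, per the study's methods, and 12 were from mice on its control diet, which 1 of the labels also calls chow. The mice were young adults of both sexes when the diet began, with 6 of each sex per diet, and no transgene or deletion was involved. The labels do not give the sex of a single library.

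The alpha chain sets where a laminin is found and which cell-surface receptor it meets, whereas the beta and gamma chains complete the trimer inside the cell before secretion. Trimers join into a sheet with type IV collagen, nidogens and the proteoglycan perlecan, and cells hold on to that sheet through integrins and dystroglycan. In a healthy liver, bile ducts, larger vessels and nerves lie on a continuous basement membrane, while the sinusoids, where blood passes along hepatocytes, do not have one. Laminins of the sinusoid wall are known to accumulate when a liver scars.

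Because the chain genes are spread over several chromosomes and several of them moved together, the sequence before the start site is shown for the 4 chains that passed the test and have an entry in the RefSeq promoter table (GRCm38.p6). The window was the 250 bases before the RefSeq start. Only the longest stretch of the window outside every exon of GENCODE M21 was printed. For Lamb2, 48 of the 250 bases lay in an exon and 124 were printed, so other bases nearer the start were left out too. Capitals mark matches, on either strand, to a few short motifs. These were the GC box, spelled GGGCGG, and the CCAAT box, which is its own spelling. The TATA box was searched as TATAAA. The AP-1 motif was searched as TGACTCA, that of RUNX factors as TGTGGT and that of TEAD factors as GGAATG. No matches overlapped. In GENCODE M21 the genes of Lama2, Lamb1 and Lamb2 begin upstream of the RefSeq start used here.

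Lama5, chr2:180225860-180226109, minus strand: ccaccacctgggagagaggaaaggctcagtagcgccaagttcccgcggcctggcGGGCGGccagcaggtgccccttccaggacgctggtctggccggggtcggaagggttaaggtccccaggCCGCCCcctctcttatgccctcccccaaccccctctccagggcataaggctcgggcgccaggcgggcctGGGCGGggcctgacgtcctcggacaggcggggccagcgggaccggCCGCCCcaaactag
Lamb1, chr12:31265043-31265233, plus strand: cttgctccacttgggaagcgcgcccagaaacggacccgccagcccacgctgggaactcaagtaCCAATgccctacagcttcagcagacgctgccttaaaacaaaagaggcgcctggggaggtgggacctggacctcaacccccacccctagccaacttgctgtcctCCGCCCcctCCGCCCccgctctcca
Lamb2, chr9:108479612-108479735, plus strand: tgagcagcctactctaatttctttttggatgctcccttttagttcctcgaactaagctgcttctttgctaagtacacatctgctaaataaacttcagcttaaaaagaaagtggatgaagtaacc
Lama2, chr10:27616943-27617192, minus strand: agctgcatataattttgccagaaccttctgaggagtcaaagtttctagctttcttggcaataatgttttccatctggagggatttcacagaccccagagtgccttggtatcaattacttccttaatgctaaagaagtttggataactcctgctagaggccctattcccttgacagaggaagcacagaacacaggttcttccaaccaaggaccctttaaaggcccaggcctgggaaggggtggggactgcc

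The windows differed in composition. The 250 bases before Lama5 held 4 GC boxes, 19 CpG dinucleotides and 72.4% G or C, and those before Lamb1 held 2 GC boxes, 1 CCAAT box, 14 CpG dinucleotides and 62.0% G or C. Those before Lamb2 and Lama2 held none of the motifs, with 43.6% and 47.2% G or C. Of all 32851 promoter windows of that length in the table, 32.74% held a GC box, 33.85% a CCAAT box, 12.37% a TATA box, 4.463% an AP-1 motif, 14.05% a RUNX motif and 12.64% a TEAD motif. A match is a run of letters and no evidence of binding, and no match says nothing of a factor.

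The libraries held 14468418 to 22112552 counts on genes. They fell into 2 sets by Xist, a transcript of the inactive X chromosome: 12 libraries, replicates 1 to 6 of each diet, had at least 2664 Xist counts and no count of the Y-linked Ddx3y, and 12 libraries, replicates 7 to 12, had at most 3 Xist counts and at least 448 Ddx3y counts. These sets are not groups of the labels, anything else that differed between replicates 1 to 6 and 7 to 12 cannot be told apart from them, and they are named below by Xist above or below 1000 counts. Summed CPM (counts scaled to a common library total after TMM adjustment) of 7 hepatocyte markers was 37509 to 93615 on the high-fat diet and 83318 to 133738 on the control diet, which was more in each library than the markers of any other cell type listed here. The high-fat diet library of replicate 9 stood apart, with the lowest hepatocyte sum and a sum of 902 CPM, of which Spp1 was 729 CPM, for 7 cholangiocyte markers (Krt7, Krt19, Epcam, Sox9, Spp1, Cftr and Cldn7), against 519 CPM in the next library. The control library of replicate 10 had the lowest total and the lowest TMM factor, at 0.679 in a range up to 1.34. In bulk liver RNA, more cells of a type and more RNA per cell cannot be told apart.

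The first comparison asked how the high-fat diet changed the chains. Transcripts of 7 of the 9 chains were higher on the high-fat diet and none was lower, by edgeR's quasi-likelihood test, for which a gene was called when its adjusted p was 0.01 or less and its log2 fold change exceeded 0.5 in size. The same rule called 13.2% of all tested genes higher and 4.99% lower. The median log2 fold change of the 9 chains was 0.80, beside -0.03 over all genes tested. Only Lama3 had a negative value, and it and Lamb3 did not pass. Both sets of libraries occur on each diet, and this model held the diet alone. With the set as a second term, 5 chains were higher (Lama2, Lama4, Lamb1, Lamb2 and Lamc1, beside 13.5% of genes) and Lama3 was lower, beside 5.92% of genes, while Lama5 and Lamc3 did not pass.

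**Figure D1:**
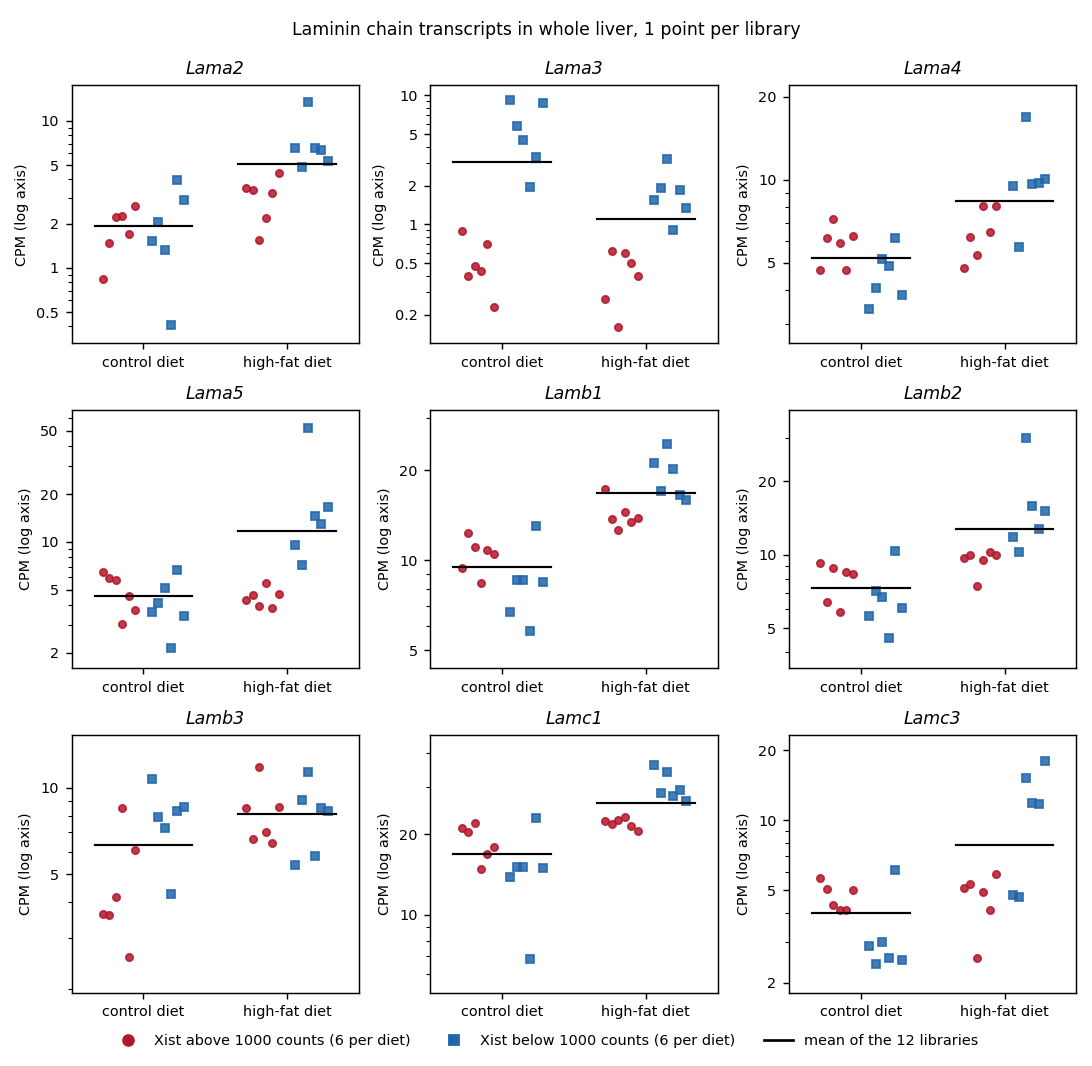
CPM of each laminin chain on a log axis by diet, with 1 point per library, red circles for the 12 libraries with Xist above 1000 counts, blue squares for the 12 below, and a line at the mean of each diet. For Lama2 and Lamc1 on the high-fat diet the squares lie above the circles, replicate 9 is the highest point for Lama5 with 52.2 CPM, and the circles and squares of Lama3 do not meet on either diet.

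Among the alpha chains, Lama2, whose product is the laminin chain of muscle and nerve basement membranes that binds dystroglycan, was measured at 0.407, 1.88 and 3.96 CPM (lowest, median and highest of the 12 libraries) on the control diet and at 1.55, 4.65 and 13.4 CPM on the high-fat diet. The diets overlapped, and 7 of 12 high-fat diet libraries were above the highest control. Its log2 fold change was 1.39 (SE 0.30, adjusted p = 0.000798), or 2.61-fold. The gene spans chromosome 10 from 26980036 to 27619758 on the minus strand.

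Lama4, whose product is a chain of vascular basement membranes, was at 3.41, 5.03 and 7.21 CPM on the control diet and at 4.80, 8.04 and 16.95 CPM on the high-fat diet. The highest value was that of replicate 9, and 7 of 12 libraries of the high-fat diet exceeded every control. This gave a log2 fold change of 0.69 (SE 0.17, adjusted p = 0.00262). Lama4 lies on chromosome 10 as well, from 38965515 to 39110188 on the plus strand.

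Lama5, the main alpha chain of epithelial and mature endothelial basement membranes, was at 2.14, 4.35 and 6.63 CPM on the control diet and at 3.85, 6.32 and 52.2 CPM on the high-fat diet. The mean on the high-fat diet was 11.7 ± 13.5 CPM (SD, n = 12), and 6 of the 12 libraries were above the highest control. The log2 fold change was 1.35 (SE 0.37, adjusted p = 0.00529) with all libraries and 0.82 (adjusted p = 0.0153) without replicate 9 of the high-fat diet, which did not pass. It did not pass either with the library set in the model (1.03, SE 0.35, adjusted p = 0.0192). Lama5 spans chromosome 2 from 180176373 to 180225859 on the minus strand.

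Lama3, which encodes the alpha chain of epithelial anchoring laminin, ran the other way. It was at 0.231, 1.41 and 9.19 CPM on the control diet and at 0.160, 0.765 and 3.21 CPM on the high-fat diet, from as few as 3 counts in a library. The diets overlapped, with 5 controls above every library of the high-fat diet. The log2 fold change of -1.44 (SE 0.57, adjusted p = 0.0451) did not pass. Its locus is on chromosome 18, from 12333819 to 12583013.

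Among the beta chains, Lamb1, a beta chain of many laminins, had the cleanest separation. It was at 5.804, 8.996 and 12.97 CPM on the control diet and at 12.6, 16.2 and 24.5 CPM on the high-fat diet. All but 1 of the high-fat diet libraries, 11 of 12, were above the highest control, and the control that reached 12.97 CPM was replicate 11. The log2 fold change was 0.82 (SE 0.13, adjusted p = 2.06e-05). No chain had all 12 high-fat diet libraries above all 12 controls, as 1.48% of tested genes had. Lamb1 lies on chromosome 12 from 31265234 to 31329644.

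Lamb2, the beta chain of mature vessel walls, neuromuscular junctions and kidney filters, was at 4.58, 6.93 and 10.4 CPM on the control diet and at 7.46, 10.3 and 30.2 CPM on the high-fat diet. Each high-fat diet library was above the control median, 5 were above every control, and replicate 9 was the highest. Its log2 fold change was 0.80 (SE 0.18, adjusted p = 0.00116). The gene occupies chromosome 9 from 108479736 to 108490530.

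Lamb3, which pairs with the Lama3 product in epithelial anchoring laminin, was at 2.58, 6.67 and 10.8 CPM on the control diet and at 5.41, 8.39 and 11.8 CPM on the high-fat diet. The ranges largely overlapped, and the log2 fold change of 0.36 (SE 0.20, adjusted p = 0.145) did not pass. Its span on chromosome 1, from 193207699 to 193343878, holds Hsd11b1 and G0s2 on the other strand in GENCODE M21. The annotated exons do not meet, and whether counting used strand is not given in the sources used here.

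The gamma chain Lamc1, the partner in most laminins, was at 6.82, 16.0 and 23.0 CPM on the control diet and at 20.6, 24.8 and 36.2 CPM on the high-fat diet. Each high-fat diet library was above the control median and 7 were above the highest control. On the log2 scale the fold change was 0.63 (SE 0.14, adjusted p = 0.000784). Lamc1 spans chromosome 1 from 153218922 to 153332786 on the minus strand.

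Lamc3, a gamma chain of restricted distribution, was at 2.42, 4.10 and 6.12 CPM on the control diet and at 2.56, 5.23 and 17.97 CPM on the high-fat diet. The medians were close, and the high values came from 4 libraries, replicates 9 to 12, that exceeded every control. The log2 fold change was 0.98 (SE 0.27, adjusted p = 0.00612), and the call held in 16 of the 24 fits that each left out 1 library. It failed without any of replicates 9 to 12 of the high-fat diet or of replicates 7, 8, 9 and 12 of the control diet, where the adjusted p rose to at most 0.0151. With the library set in the model it was 0.87 (SE 0.27, adjusted p = 0.0130) and did not pass. The gene is on chromosome 2 from 31887291 to 31946539. In GENCODE M21, Lama2, Lama3 and Lamc3 share 631, 197 and 382 exon bases with an antisense gene that did not pass the filter on low counts.

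The next comparison asked whether the change was alike in both sets of libraries. Where Xist was below 1000 counts, the same 7 chains were higher and Lama3 was lower, while 14.3% of genes tested there were called higher and 7.89% lower. The 9 chains had a median log2 fold change of 1.19 in that set. Where Xist was above 1000 counts, none of the 9 was called by edgeR, beside 2.91% of genes called higher, and the median was 0.23. There 4 of the 9 (Lama2, Lamb1, Lamb3 and Lamc1) had an unadjusted p under 0.05. The share of all genes under that p was not counted, here or for the later counts by unadjusted p. Those counts thus have no background to be read against. The plot of fold changes by set shows each chain.

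**Figure D2:**
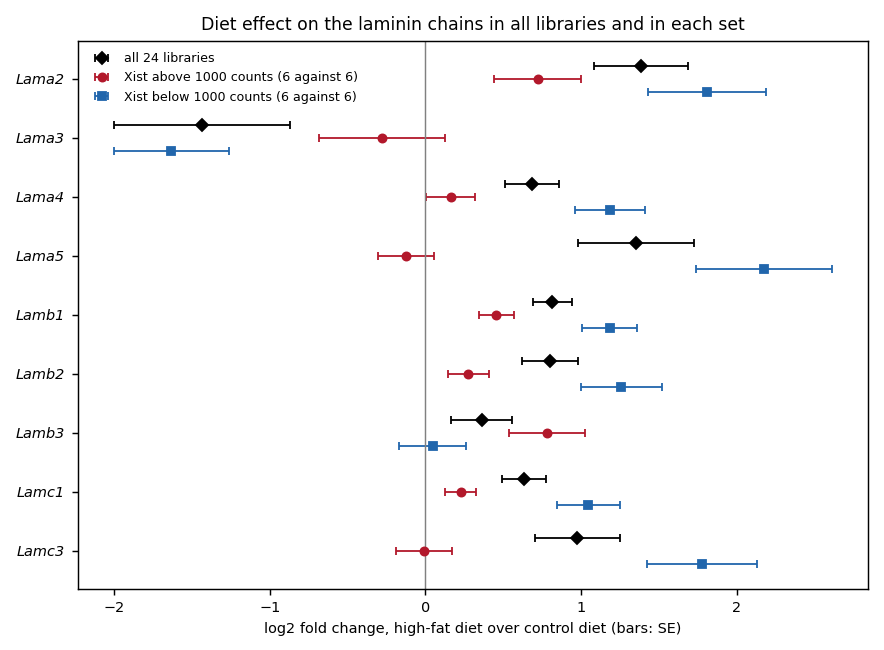
Log2 fold change of the high-fat over the control diet for each laminin chain, with bars of 1 SE, for all 24 libraries (black), the 12 with Xist above 1000 counts (red) and the 12 below (blue). The blue points lie to the right of the red ones for Lama2, Lama4, Lama5, Lamb1, Lamb2, Lamc1 and Lamc3, and to the left for Lama3 and Lamb3.

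The difference between the sets was tested as an interaction of diet and set. At an adjusted p of at most 0.05, 6 of the 9 chains passed, each with a lower log2 fold change where Xist was above 1000 counts. Of all tested genes, 6.18% passed in that direction and 10.2% in either direction. Lama5 differed most: its log2 fold change was -0.13 (SE 0.18) where Xist was above and 2.18 (SE 0.44) where it was below, a difference of -2.29 (SE 0.50, adjusted p = 0.00406). In CPM, Lama5 was 3.06 to 6.44 on the control diet and 3.85 to 5.48 on the high-fat diet in the first set, with the diets mixed. It was 2.14 to 6.63 on the control diet and 7.16 to 52.2 on the high-fat diet in the second set, with the diets apart.

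Lamc3 followed the same pattern, with a log2 fold change of -0.01 (SE 0.18) above and 1.78 (SE 0.35) below (interaction -1.77, SE 0.41, adjusted p = 0.00627). In CPM its means were 4.71 ± 0.631 and 4.66 ± 1.18 (SD, n = 6) on the control and high-fat diet in the first set, and 3.24 ± 1.43 and 11.02 ± 5.40 in the second. Lama4 (-1.01, adjusted p = 0.0214), Lamc1 (-0.81, adjusted p = 0.0231), Lamb1 (-0.72, adjusted p = 0.0286) and Lamb2 (-0.97, adjusted p = 0.0364) had smaller interactions. Lama2, Lama3 and Lamb3 did not pass, at 0.175, 0.130 and 0.181, so their changes are not shown to differ between the sets. Without replicate 9 of the high-fat diet, or without replicate 7 of the control diet, only Lama4, Lama5, Lamc1 and Lamc3 passed.

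Within the sets, all 6 high-fat diet libraries were above all 6 controls for Lama2, Lama5, Lamb1 and Lamc1 where Xist was below 1000 counts, as for 12.6% of genes tested. In the other set this held for Lamb1 alone, as for 3.51% of genes tested. There Lamb1 was 8.42 to 12.3 CPM on the control diet and 12.6 to 17.3 CPM on the high-fat diet (log2 fold change 0.46, SE 0.11, adjusted p = 0.0140). Lamb3 had its larger value in that set, with 4.76 ± 2.15 and 8.15 ± 2.002 CPM (SD, n = 6) and a log2 fold change of 0.78 (SE 0.24, adjusted p = 0.0433), which did not pass the threshold of 0.01.

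Lama3 was the chain whose level depended most on the set. It was 0.160 to 0.885 CPM in the 12 libraries with Xist above 1000 counts and 0.907 to 9.19 CPM in the 12 below, so the sets did not meet. With diet in the model, Lama3 was 6.87-fold lower where Xist was above (log2 difference -2.78, SE 0.31, adjusted p = 4.19e-07), and 2.09% of tested genes were called lower there. None of the other 8 chains was called for set by edgeR, and 2 of them (Lama2 and Lama5) had an unadjusted p under 0.05. With the set as a term in the model, the diet change of Lama3 was -1.13 (SE 0.30, adjusted p = 0.00409) and passed. In the second set Lama3 was 1.93 to 9.19 CPM on the control diet and 0.907 to 3.21 CPM on the high-fat diet, a 3.10-fold lower level (log2 -1.63, SE 0.37, adjusted p = 0.00315). In the first set it was 0.231 to 0.885 and 0.160 to 0.622 CPM, from 3 to 18 counts, and a difference was not detectable at this depth (log2 -0.28, SE 0.40).

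Ratios of 2 chains within a library, which do not depend on how libraries are scaled, were used to ask which chains moved unequally. Over all libraries none of the 6 ratios passed after adjustment. The ratio of Lama2 to Lama4 counts had a median of 0.374 on the control diet and 0.598 on the high-fat diet, a log2 difference of 0.73 (permutation test with 100000 resamples, two-sided p = 0.0138, adjusted over the 6 ratios 0.0828). For Lama3 to Lamb3, the medians were 0.337 and 0.124 (log2 difference -1.37, permutation p = 0.0298, adjusted 0.0894). The ratio of Lamb1 to Lamb2 was 1.26 and 1.38 (log2 difference 0.09, permutation p = 0.455), so any shift between these beta chains was smaller than the spread.

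Within the set with Xist below 1000 counts, the median ratio of Lama3 to Lamb3 was 0.674 on the control diet and 0.216 on the high-fat diet, and the 6 and 6 libraries did not overlap. The exact permutation p of 0.00216 is the smallest that 6 against 6 allows, and it was 0.0260 after adjustment over the 12 tests within sets. The ratio of Lama4 to Lama5 went from 0.998 to 0.707 in that set (exact permutation p = 0.00866, adjusted 0.0519), and from 1.14 to 1.41 in the other (exact permutation p = 0.305). For Lamc1 to Lamc3 the medians were 4.90 and 2.42 where Xist was below (exact permutation p = 0.214) and 3.86 and 4.503 where it was above (exact permutation p = 0.182).

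**Figure D3:**
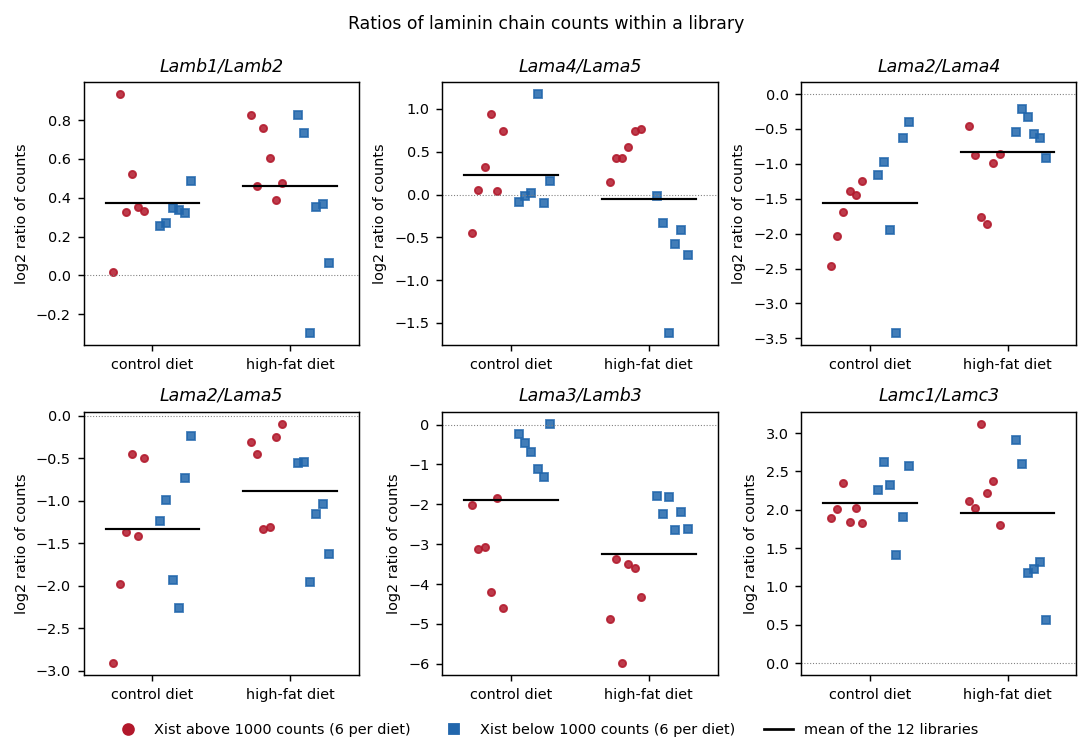
Log2 ratio of the counts of 2 laminin chains in each library by diet, for 6 pairs, with red circles for Xist above 1000 counts, blue squares for Xist below, and a line at the mean of 12 libraries. The blue squares of Lama3/Lamb3 are lower on the high-fat diet without overlap, and the points of Lamb1/Lamb2 overlap throughout.

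Partner chains were also compared between mice of a diet, as correlations of log2(CPM + 1) after each set's mean was subtracted, for 5 pairs and both diets. Lama5 and Lamb2 went together on the high-fat diet with Pearson's r = 0.95 (permutation p = 0.00144, adjusted over 20 values 0.0288) and Spearman's rho = 0.60 (permutation p = 0.0616, adjusted 0.176). Without the 2 libraries farthest from the Lama5 median, replicates 9 and 12, r was 0.74 (permutation p = 0.0419). Within the sets, r was 0.99 over the 6 libraries with Xist below 1000 counts and 0.30 over the other 6. On the control diet the same pair had r = 0.78 and rho = 0.71 (permutation p = 0.00863 and 0.0169, adjusted 0.0638 and 0.0748). Without the 2 control libraries farthest from the Lama5 median, r fell to 0.53 (permutation p = 0.196). Within the sets on that diet, r was 0.94 where Xist was below 1000 counts and 0.50 where it was above.

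Lamb1 and Lamc1, partners in many laminins, had r = 0.84 and rho = 0.71 on the control diet (permutation p = 0.00957 and 0.0187, adjusted 0.0638 and 0.0748), and r = 0.65 and rho = 0.55 on the high-fat diet (permutation p = 0.0749 and 0.143, adjusted 0.187 and 0.317). Without the 2 libraries farthest from the Lamb1 median r fell to 0.56 and 0.17. Leaving out the most extreme libraries narrows the range, which can itself lower r, so this does not show what the relation rests on. Within the sets with Xist above and below 1000 counts, r was 0.55 and 0.90 on the control diet. On the high-fat diet it was 0.21 and 0.76. For Lama4 and Lamc1, Lama2 and Lamc1, and Lama3 and Lamb3, r was between 0.23 and 0.67 and no adjusted p was under 0.176. These values pool sets that differed in sign, save for Lama4 and Lamc1 on the control diet. For Lama3 and Lamb3, r was -0.91 above 1000 Xist counts and 0.80 below on the high-fat diet, and -0.58 and 0.85 on the control diet. For Lama2 and Lamc1 these were -0.76 and 0.60, and -0.42 and 0.92. For Lama4 and Lamc1 they were -0.29 and 0.43, and 0.25 and 0.24. Each is from 6 libraries and was not tested.

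Per length, as CPM divided by the kilobases of the longest GENCODE M21 transcript, Lamc1 was the most abundant chain on either diet, with 2.21 ± 0.586 on the control diet and 3.43 ± 0.675 on the high-fat diet (SD, n = 12). Below it on the control diet came Lamb1 at 1.64, Lamb2 at 1.299 and Lamb3 at 1.295, Lama4 at 0.861, Lamc3 at 0.677, Lama5 at 0.399, Lama3 at 0.289 and Lama2 at 0.202. The beta and gamma chains thus ranked above each alpha chain save for Lama4 over Lamc3. Among neighbours in that order, only Lamc3 and Lama5 were farther apart than the larger of their SDs. On the high-fat diet the order was the same down to Lama5 at 1.02, and Lama2 at 0.530 then stood above Lama3 at 0.105, in 12 of 12 libraries. On the control diet the order of these 2 holds for the mean alone: Lama3 was above Lama2 in 5 of 12 libraries, and its median was lower, at 0.134 against 0.196. On the high-fat diet that pair was the only one farther apart than the larger SD. Which transcripts were present was not measured, so the lengths are those of the annotation.

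**Figure D4:**
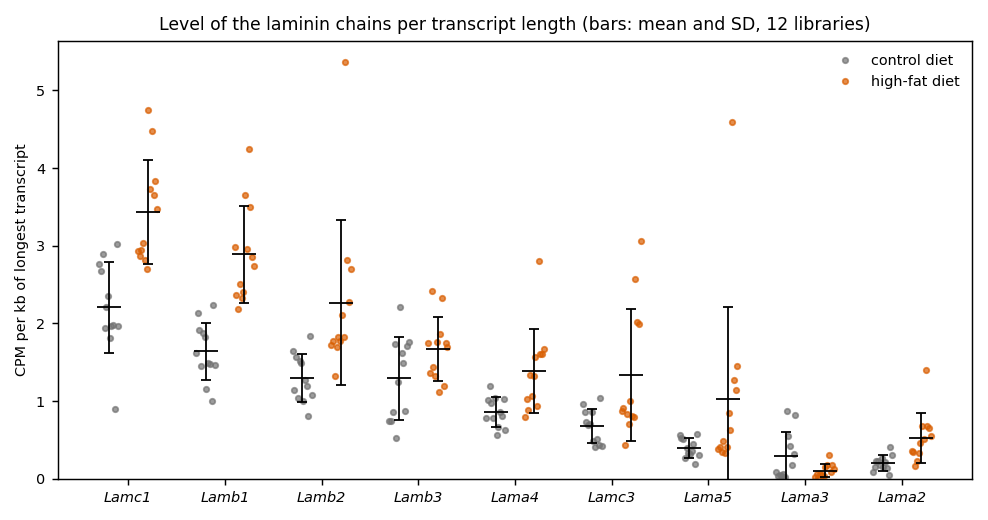
CPM per kilobase of the longest annotated transcript for the 9 laminin chains, ordered by the control mean, with 1 point per library (grey for the control diet, orange for the high-fat diet) and bars at the mean and SD of 12 libraries. Lamc1 is highest on both diets, at 2.21 and 3.43, and Lama3 is the lowest on the high-fat diet, at 0.105; the lower SD bar of Lama5 on the high-fat diet is cut at 0.

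Of the family's other chain genes, Lama1, the alpha chain of early embryonic basement membranes, was at 5.29 ± 1.21 and 6.06 ± 2.14 CPM (SD, n = 12) on the control and high-fat diet and did not pass (log2 fold change 0.19, SE 0.19, adjusted p = 0.457).

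Of 11 genes for laminin receptors, 5 were higher and none lower, with a median log2 fold change of 0.53. These were the integrin subunits Itga2 (2.05, SE 0.50), Itgb4 (1.66, SE 0.40) and Itga6 (1.28, SE 0.26), the Lutheran antigen Bcam, which binds the Lama5 product (1.59, SE 0.32), and the tetraspanin Cd151, which associates with laminin-binding integrins. Rpsa, a ribosomal protein also described as a laminin receptor, had the highest level of those that did not pass, at 512 ± 240 and 389 ± 42.5 CPM (SD, n = 12). Itga6 and Itgb4 products form 1 receptor. Of the 11 tested genes that attach laminin-binding sugars to dystroglycan, none was called by edgeR and 4 had an unadjusted p under 0.05. Pomt2, an O-mannosyltransferase and the most abundant, had a log2 fold change of -0.39 with an adjusted p of 0.00113, short of the fold threshold.

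Of 14 genes for basement membrane proteins that bind laminin or form the sheet with it, 9 were higher and none lower, with a median of 1.33. Nid1, the nidogen that links laminin to type IV collagen, rose from 14.8 ± 5.90 to 44.5 ± 10.04 CPM (SD, n = 12, log2 fold change 1.58, adjusted p = 1.14e-06). Col4a1, a chain of the ubiquitous type IV collagen, rose from 41.6 ± 12.004 to 122 ± 41.4 CPM (1.55, adjusted p = 4.78e-07). Col4a6 (2.34) and Fbln1 (1.62) were also higher. Col18a1, which hepatocytes express at a high level, was at 1108 and 815 CPM (log2 fold change -0.44, adjusted p = 0.000994) and missed the fold threshold. In the set with Xist above 1000 counts, 3 of the 14 passed, where none of the laminin chains had.

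Of 5 tested genes for netrins and related proteins that carry a laminin N-terminal domain, 1 passed: the guidance protein Ntn1 was at 13.04 ± 2.93 CPM on the control diet and 21.02 ± 2.702 CPM on the high-fat diet (SD, n = 12, log2 fold change 0.69, adjusted p = 3.32e-05). Ntn4, a basement membrane netrin that binds laminin gamma chains, was at 10.7 and 11.3 CPM and did not pass. Ntn5 and Ntng1 were below the filter. Of 7 hemidesmosome genes, 3 were higher (Itgb4, Itga6 and Cd151) and none lower. These 3 are also among the 5 laminin receptor genes counted above, and the other 4 hemidesmosome genes did not pass. Plec, the cytoskeletal linker plectin, was 1 of those and had a log2 fold change of 0.13.

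Markers of several liver cell types were also higher on the high-fat diet. Of 7 cholangiocyte markers 6 were higher on the high-fat diet, with Cftr the largest (log2 fold change 3.10) and Sox9 the smallest (0.55, not passing). Their summed level was 27.5 to 133 CPM on the control diet and 32.2 to 902 CPM on the high-fat diet, and Cftr was at 0 in 5 controls and 1 library of the high-fat diet, while the other 6 were detected in all 24. Among the 6 mice on the high-fat diet whose Xist count was below 1000, the sum was 259, 292, 463, 509, 519 and 902 CPM in replicates 8, 7, 11, 10, 12 and 9. Lama5 in those libraries, in that order, was 7.16, 9.61, 12.97, 14.5, 16.5 and 52.2 CPM. Most of that sum was Spp1, the secreted protein osteopontin, which other liver cells can also express, at 244 to 729 CPM. The other 6 markers together were at 14.7, 14.2, 33.4, 37.3, 39.5 and 173 CPM, and the keratin Krt19 at 2.49, 2.37, 5.90, 7.57, 6.46 and 48.1 CPM. Replicates 7 and 8 thus change places without Spp1. For Krt19, replicates 7 and 8 and replicates 10 and 12 changed places against the order of Lama5. Krt19 and Lama5 were both highest in replicate 9. In the 6 with Xist above 1000 counts, the sum was 32.2 to 178 CPM, the 6 markers other than Spp1 were at 5.86 to 15.04 CPM, and Lama5 was at 3.85 to 5.48 CPM. The part of bile duct cells in the Lama5 and Lamc3 results was not tested.

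**Figure D5:**
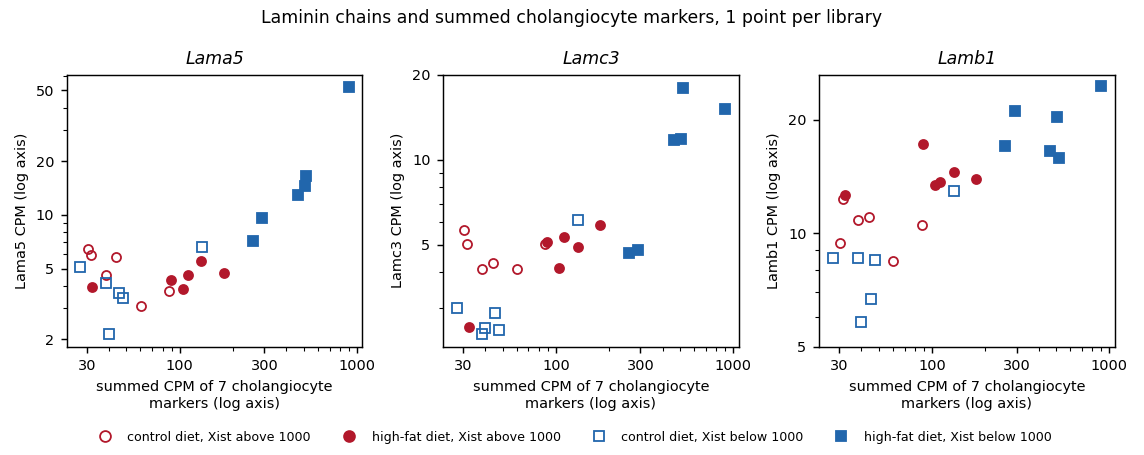
CPM of Lama5, Lamc3 and Lamb1 in each library against the summed CPM of 7 cholangiocyte markers, both on log axes, with open symbols for the control diet, filled symbols for the high-fat diet, red circles for Xist above 1000 counts and blue squares below. The 6 filled squares reach from 259 to 902 CPM on the horizontal axis, most of it Spp1, and from 7.16 to 52.2 CPM of Lama5.

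Of 7 markers of activated stellate cells and myofibroblasts, the collagen-producing cells of a scarring liver, 5 were higher, from Timp1 (log2 fold change 3.62) to Tagln (0.47, not passing), and their sum was 39.6 to 224 CPM on the control diet and 171 to 646 CPM on the high-fat diet. Of 6 portal fibroblast markers 4 were higher (Eln 2.39, Thy1 0.58), with sums of 8.76 to 24.5 and 15.3 to 80.6 CPM. Of 6 markers of continuous vascular endothelium 4 were higher (Cd34 2.07, Cldn5 0.27), with sums of 75.04 to 142 and 146 to 208 CPM, and these diets did not overlap. Of 6 markers of sinusoidal endothelium 1 was higher (Stab2 0.57, Clec4g -0.47), with sums of 157 to 351 and 170 to 359 CPM. Macrophage markers (4 of 5 higher, Cd68 1.84, Clec4f 0.20) summed to 125 to 547 and 313 to 1019 CPM. The interaction of diet and set passed for 4 of these 5, 2 of the 7 cholangiocyte and 2 of the 6 sinusoidal markers. It passed for 1 of the 6 portal fibroblast, 1 of the 6 continuous endothelium and 0 of the 7 activated stellate cell markers. Of all tested genes, 10.2% passed. Where Xist was above 1000 counts, 5 of 7 activated stellate cell markers were called higher. So were 2 of 6 portal fibroblast and 2 of 5 macrophage markers, beside 2.91% of genes. In that set no cholangiocyte, sinusoidal or continuous endothelium marker was called higher, and none of the 9 chains was.

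Among hepatocyte markers 5 of 7 were lower and none higher (Hnf4a -0.40, Pck1 -1.12). Of 7 markers of quiescent stellate cells 1 was higher (Ngfr 0.85, Ecm1 -0.28), with sums of 192 to 463 and 218 to 410 CPM, and of 5 of smooth muscle 1 was higher (Smtn 0.72, Actg2 -0.59), with sums of 48.1 to 114 and 77.1 to 108 CPM. None of 4 mesothelial markers (Msln 1.14, Upk1b 0.40) was called by edgeR, with an unadjusted p under 0.05 for 2, and these summed to 0.263 to 3.93 and 1.44 to 7.64 CPM. Of the striated muscle markers 1 of 4 was tested (Mylpf -0.07), with sums of at most 1.48 CPM. The part of these cell types in the laminin results was not tested.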

How the data were processed

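Poly(A)-selected RNA of whole livers was sequenced. The deposited file is a table of raw counts per Ensembl gene that the authors did not normalize; the submitters' processing notes name bcl2fastq, STAR 2.7.3a and the build mm10, and the counting program, annotation and strand setting are not given in the sources used here. Symbols came from GENCODE M21, which lacks 4460 of the 56205 gene IDs (0.0723% of counts), so its coordinates and lengths may differ from those used for counting. Columns were matched to libraries by title.

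TMM scaling and the quasi-likelihood test were from edgeR 4.0.16 in R 4.3.3, with diet as the only term and Benjamini-Hochberg adjustment over 17913 genes. The SE is the absolute log2 fold change over the square root of F. The fit was tested on simulated data. Ratios had 0.5 added to each count. The methods describe a model for the human livers, with sex as a covariate, and none was found for the mouse libraries. Its thresholds were used here without the covariate, since the labels give no sex for a library, and the set defined by Xist stands in the model as an alternative. All libraries of the same diet differed by more than sampling noise (lowest chi-square per degree of freedom 10.1). Nothing says beyond the design text that each library is a separate mouse, so p-values measure the spread between libraries.

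The members, gene lists, markers and alternatives were chosen with earlier results of these data known. Named were all 9 members, in each other pathway list the called genes (at most the 4 with the largest change, plus Cd151 where it completed a count) and the most abundant uncalled gene, and in each marker list the largest and smallest change. Alternatives were DESeq2 1.42.0, limma-voom, other scalings, filters and thresholds, a replicate block, the library set as covariate, surrogate variables (sva 3.50.0), and each library left out. Results of some other genes in these lists are not reported here.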

Additional observations from a re-analysis of the deposited data

Results flagged for a closer look

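Laminin chains were singled out where the diet effect differed between the sets of libraries with Xist above and below 1000 counts, by the interaction term of edgeR's quasi-likelihood test. The interaction, as the log2 fold change in the first set minus that in the second, was -2.29 for Lama5, -1.77 for Lamc3, -1.01 for Lama4, -0.97 for Lamb2, -0.81 for Lamc1 and -0.72 for Lamb1. The sets are replicates 1 to 6 and 7 to 12 of each diet, and the labels do not say what else differed between them, so this cannot be told apart. Markers of other cells were read by the same term. The interaction passed for 4 of 5 macrophage markers, whose sum was 281 to 547 CPM on the control diet and 542 to 629 CPM on the high-fat diet in the first set, and 125 to 216 and 313 to 1019 CPM in the second. It also passed for 2 of 6 sinusoidal endothelium, 1 of 6 portal fibroblast, 1 of 6 continuous endothelium and 1 of 7 hepatocyte markers. It passed for 0 of 7 activated stellate cell markers. Of all tested genes, 10.2% passed. For cholangiocyte markers it passed for 2 of 7 (Spp1 and Epcam, named after their values were seen). Their sum on the high-fat diet was 32.2 to 178 CPM in the first set and 259 to 902 CPM in the second, mostly Spp1. Without Spp1 it was 5.86 to 15.04 and 14.2 to 173 CPM, and the sets overlapped, as they did for Krt19 at 1.01 to 3.01 and 2.37 to 48.1 CPM. The part of any of these cell types in the result was not tested. Lama4, Lama5, Lamc1 and Lamc3 passed the interaction test in each of the 24 fits that left out 1 library, while Lamb1 and Lamb2 did not. Groups of 12 were not tested for single outlying libraries.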

How the results depend on the processing

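The 7 chains called higher were the same 7 with DESeq2, its size factors, library totals, no filter and the filter of edgeR's filterByExpr. With limma-voom, the library set as covariate or 2 surrogate variables, Lama5 and Lamc3 lost the call and 5 remained. With a log2 fold change over 1, 2 were called (Lama2 and Lama5). Requiring 10 counts in every library removed Lama2 and Lama3 from the test, kept the other 6 called, and left 1226 genes called higher in place of 2372. With the replicate number as a block, 4 chains were called (Lama2, Lamb1, Lamb2 and Lamc1). The correlation of deviations of same-numbered libraries from their diet means was -0.093 for number 9 and over 0.1 for the other 11. Same-numbered libraries also lie in the same set, and the set means were not subtracted. These correlations therefore cannot tell a pairing from the set. The main model did not treat a shared number as a pairing. With same-numbered libraries as pairs, the ratio of Lama3 to Lamb3, at -1.37 and lower in 10 of 12 pairs, passed after adjustment over the 6 ratios (exact sign-flip permutation p = 0.00391, adjusted 0.0234), as it had not without the block (0.0894). The other 5 ratios did not pass in either test.

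In the set with Xist above 1000 counts 0 chains were called higher, Lama5 and Lamc3 had log2 fold changes of -0.13 and -0.0093, and 525 genes were called higher and 162 lower. In the set below, 1 chain (Lama3) was called lower, as it was with the covariate, with 2 surrogate variables, and at an adjusted p of 0.05 with no fold threshold, and 1430 genes were called lower in place of 894. That set gave the same chains without high-fat replicate 9, control replicate 10 or control replicate 11, fits added after seeing the data, where 1 chain was again called lower and Lamb3 was at -0.079 and -0.065 without the first and second of them. Library totals gave 3827 genes higher and 226 lower, with the median of all genes at 0.26 in place of -0.03; an adjusted p of 0.05 alone gave 3709 and 3388; and a log2 fold change over 1 gave 216 lower. Leaving out 1 library at a time gave 5 to 7 chains called higher, and 4 to 7 with an interaction, where the 7 (without control replicate 4) were the original 6 and Lamb3.

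By set, the ratio of Lama4 to Lama5 differed between the diets by 0.24 where Xist was above 1000 counts and by -0.80 where it was below. Where Xist was above, that of Lamc1 to Lamc3 differed by 0.29, that of Lama2 to Lama4 by 0.57 and that of Lama3 to Lamb3 by -1.14. The 4 values above had exact permutation p = 0.305, 0.182, 0.0844 and 0.0996, with no adjusted p under 0.199. The -0.80 did not pass either (exact permutation p = 0.00866, adjusted 0.0519). Without 1 library, the Lama3/Lamb3 difference was -1.61 to -1.12, and its permutation p passed 0.05 without control replicate 7 or 12 or high-fat replicate 1 or 3. Without the 2 farthest libraries, r turned to -0.015 and -0.29 for Lama2 and Lamc1 (high-fat and control diet) and to -0.31 for Lama3 and Lamb3 on the high-fat diet. The cause of these differences was not tested. Depth limits Lama3 most, with 3 to 18 counts in the libraries with Xist above 1000 counts.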
